A study of Homo sapiens
Mus musculus with 6 samples.

Results

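The levels of same-named genes were compared between mouse C2C12 myoblasts and human HEK293 cells that shared a culture well. A gene entered when its mouse name in capitals equalled a human name, with 1 row kept per name in each table. Jag1 and Notch1, the genes carried by the transfected constructs of this study, were left out. The rule gave 15956 gene pairs, which were 68.1% of the 23433 names in the mouse table and 66.9% of the 23855 names in the human table. A shared name marks a likely orthologue, and the pairing was not checked against an orthologue table.

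C2C12 is an immortal mouse line of skeletal muscle precursor cells, and HEK293 is a line of human embryonic kidney origin. The study asked how Notch-bearing mouse cells respond to human cells that carry normal or mutant Jagged1, a Notch ligand. C2C12-Notch1 cells, which stably carried full-length Notch1 under puromycin, and C2C12-control cells were each seeded in 3 wells of a single plate, allowed 8 h to settle and given empty pcDNA5 plasmid (1.6 ug per well). HEK-Jag1WT cells with wild-type Jag1, HEK-Jag1Ndr cells with the Nodder form of Jag1 (both kept under hygromycin) or HEK-control cells, all in the HEK293-Flp-In background, were added 18 h later for 6 h of co-culture. Each of the 6 combinations had 1 well, and polyA RNA of both species was sequenced together. No label says how many clones a line represents, so wells that share a line stand in as replicates and may share technical features.

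Myoblasts are committed to muscle by the MyoD family of transcription factors, which switch on sarcomere and neuromuscular junction genes as cells leave the cycle and fuse. They also secrete collagens and other matrix. HEK293 cells carry adenoviral E1 genes, whose products bind RB and p53, and they combine epithelial, embryonic and neuronal traits.

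Each well gave 2263529 to 7965231 reads in mouse genes and 4081452 to 10292878 reads in human genes, and the mouse share ran from 29.6% to 52.7%. Levels are RPKM, reads divided by gene length in kilobases and by the library total, as the submitters scaled them within each species. A difference between species is the log2 level ratio, log2 of (mouse RPKM + 1) over (human RPKM + 1), so a positive value is higher in C2C12 and the added 1 RPKM shrinks the ratio of low genes. Because the 2 tables were normalized separately, no test was run across them, and every difference between C2C12 and HEK below is a description over 6 wells. In a bulk lysate, fewer cells of a kind and less RNA per cell cannot be told apart.

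A gene was called higher in C2C12 or in HEK when it was at least 4-fold higher in the same direction in all 6 wells. By this rule 735 members (4.61%) were higher in C2C12, 930 (5.83%) were higher in HEK, and 7187 (45.0%) lay within 2-fold in every well. The other 7104 members lay between these limits. Members with a mean of at least 1 RPKM made up 3344 of the 7187 close pairs, so most close pairs were low in both species. At least 1 RPKM in every well was reached in both species by 8614 members, in C2C12 alone (under 1 RPKM in every HEK value) by 425, and in HEK alone by 1182. A further 3675 stayed under 1 RPKM throughout, of which 997 had no read at all, and 2060 were mixed.

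**Figure D1:**
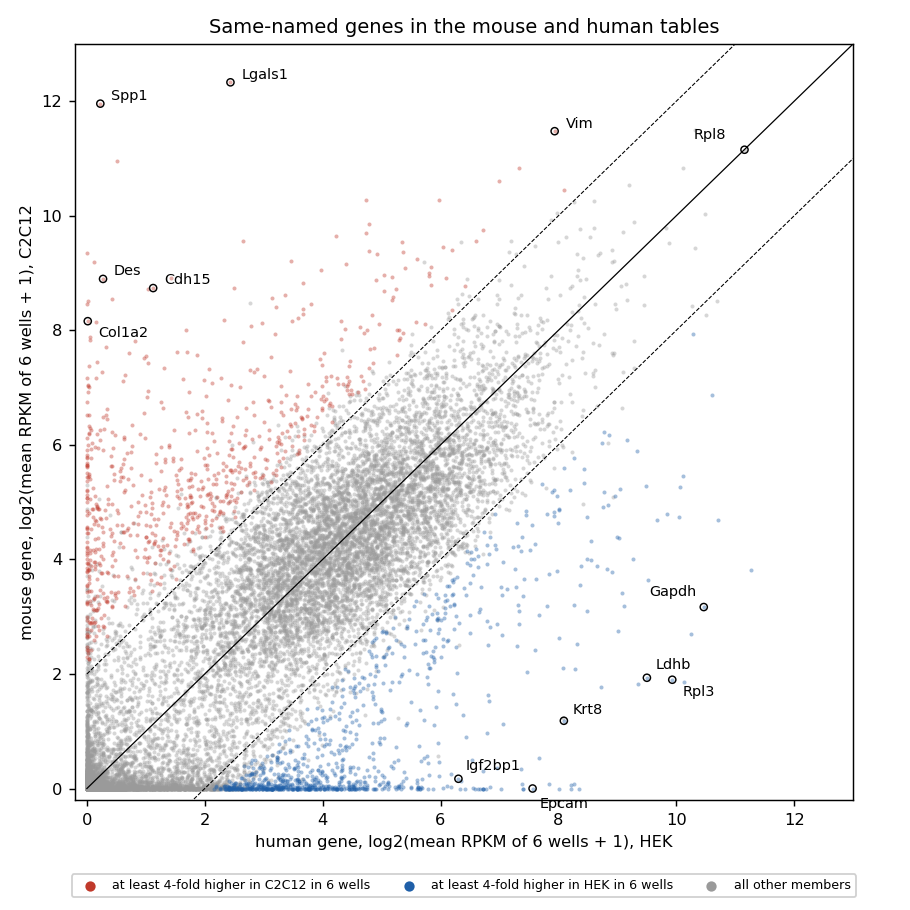
Mean level of each of the 15956 gene pairs over 6 wells, with human genes (HEK) on the x axis and mouse genes (C2C12) on the y axis, both as log2(RPKM + 1). The solid line marks equal levels and the dashed lines 4-fold differences; 735 members called higher in C2C12 are red and 930 called higher in HEK are blue. Of the blue points, 192 lie on the bottom edge with no mouse read in any well.

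Across genes, the mouse and human levels had a Pearson correlation of 0.753 to 0.771 and a Spearman correlation of 0.756 to 0.773 within wells. This is a description in which all genes of a well share the same library. The median ratio over the 8614 members expressed in both species was 0.00, with quartiles at -0.78 and 0.82. The ratio of a given gene was steady over wells by comparison, with a median SD of 0.30 among those members. At the threshold, Magee1 was just inside the C2C12 class (smallest ratio 2.0000) and Sqstm1 just outside (1.9998), while Cadm1 was just inside the HEK class (2.0004 in size) and Ogfod1 just outside (1.9991).

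Some lineage genes of 1 species had almost no reads in the table of the other. Other lineage genes, such as Itga7 and Tnnt1 in HEK and Krt19 in C2C12, were well above 0, as given below. How far reads were mixed between tables was not tested. Epcam had 0 mouse reads in 6 wells beside 12151 human reads, and COL1A2 had 3 human reads beside 42784 mouse reads. Endothelial genes were under 1 RPKM in every well of both tables (8 of 8 members, all close with a median ratio of -0.01, summed level 0.0538 to 0.247 RPKM in C2C12 and 0.128 to 0.257 RPKM in HEK), with Emcn at 0 throughout. Leukocyte genes were under 1 RPKM in every well for 7 of 8 members in C2C12 and 5 of 8 in HEK, with the pan-leukocyte marker Ptprc at 0.00375 RPKM in C2C12 and listed at 0 in HEK. Nearly all of that list's summed level (0.659 to 3.88 RPKM in C2C12 and 48.6 to 77.8 RPKM in HEK) came from Cd68 (2.09 RPKM in C2C12, 7.02 RPKM in HEK), Coro1a (0.0332 RPKM in C2C12, 3.3 RPKM in HEK) and Lcp1, an actin-bundling protein and the 1 member called higher in HEK (0.00685 RPKM in C2C12, 50.3 RPKM in HEK; 5 close, median ratio -0.30).

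Muscle genes lay mainly on the C2C12 side. Of 16 myogenic regulators, 5 were higher in C2C12, 1 was higher in HEK and 4 were close, with a median log2 ratio of 1.06 beside -0.04 over all 15956 members. Where 3 values are given for 1 gene without naming a line, they are the lowest, median and highest of 6 wells. Where a C2C12 line is named, they are its 3 wells. Myod1, the factor that commits cells to muscle, read 27.8, 50.6 and 96.2 RPKM in C2C12, against 0, 0.134 and 0.326 RPKM in HEK. Its log2 ratio was 5.64 ± 0.77 (SD, n = 6 wells), and no C2C12 value came near a HEK value. Myf5, a second commitment factor of the same family, read 30.7, 46.3 and 87.9 RPKM in C2C12 and was listed at 0 in every HEK well. Myog, which drives differentiation, read 11.6, 18.4 and 38.3 RPKM in C2C12 and was also listed at 0 in HEK. Cdon, a cell surface receptor that promotes myogenesis, and Mef2d, a cofactor of the MyoD family, had ratios of 3.04 ± 0.51 and 2.47 ± 0.24. The exception was Pax3, a regulator of muscle and neural crest progenitors, which read 0, 0.0187 and 0.115 RPKM in C2C12 and 5.71, 6.25 and 8.47 RPKM in HEK (ratio -2.89 ± 0.25). Mef2a, a partner of the MyoD family, was close, at 13.7 RPKM in C2C12 and 19.1 RPKM in HEK.

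Sarcomere genes followed, with 15 of 28 higher in C2C12, 0 higher in HEK, 6 close and a median ratio of 2.81. Desmin (Des), the muscle intermediate filament, read 339, 477 and 593 RPKM in C2C12 and 0, 0.152 and 0.523 RPKM in HEK (ratio 8.61 ± 0.41). Tnnt2, the troponin T of embryonic and cardiac muscle, read 201, 221 and 270 RPKM in C2C12 and 0, 0 and 0.248 RPKM in HEK, where a single read accounted for the highest value. Mylpf, a fast-muscle light chain, and Tnni1, the slow troponin I, had ratios of 6.74 ± 1.09 and 5.39 ± 0.64. The 6 close members were low in both species, among them the adult myosins Myh7 (0.364 RPKM in C2C12, 0.0109 RPKM in HEK) and Myh2 (0.0279 RPKM in C2C12, listed at 0 in HEK) and titin (Ttn, 0.575 RPKM in C2C12, 0.0986 RPKM in HEK). Of the Z-disc genes, Tcap averaged 0.601 RPKM in C2C12 and 5.39 RPKM in HEK, and Actn2 read 0 to 0.359 RPKM in C2C12 and 0.706 to 1.87 RPKM in HEK. Both were higher in HEK in all 6 wells without reaching 4-fold in each. The slow troponin T Tnnt1 overlapped between the species, at 25.8 RPKM in C2C12 and 24.4 RPKM in HEK.

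Genes of excitation-contraction coupling and the neuromuscular junction gave 9 of 18 higher in C2C12, 0 higher in HEK and a median ratio of 2.54. Chrna1, the alpha subunit of the muscle acetylcholine receptor, read 107, 125 and 152 RPKM in C2C12 and 0, 0 and 0.0762 RPKM in HEK, with the small spread of 0.17 around a ratio of 6.99. Cacng1, a calcium channel subunit, Jph2, which joins the membrane to the sarcoplasmic reticulum, and Rapsn, which clusters the receptor, had ratios of 6.43 ± 0.44, 5.36 ± 0.49 and 4.98 ± 0.35. The receptor kinase Musk read 6.6, 11 and 15 RPKM in C2C12 and was listed at 0 in HEK. Channels of mature fibres were low even in C2C12: Ryr1 averaged 1.88 RPKM and Cacna1s 0.933 RPKM, against 0.38 RPKM and 0.0129 RPKM in HEK.

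On the myoblast surface, 6 of 12 genes were higher in C2C12, 0 were higher in HEK and 0 were close (median ratio 2.46). M-cadherin (Cdh15) read 190, 423 and 698 RPKM in C2C12 and 0.889, 1.28 and 1.37 RPKM in HEK. The laminin receptor Itga7 read 267, 291 and 343 RPKM in C2C12 and 5.99, 12.8 and 13.9 RPKM in HEK. Vcam1 and the fusion gene Tmem8c (myomaker) averaged 27.7 and 22.8 RPKM in C2C12 and were listed at 0 in HEK. By contrast Cxcr4, a chemokine receptor, averaged 3.35 RPKM in C2C12 and 19.9 RPKM in HEK.

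**Figure D2:**
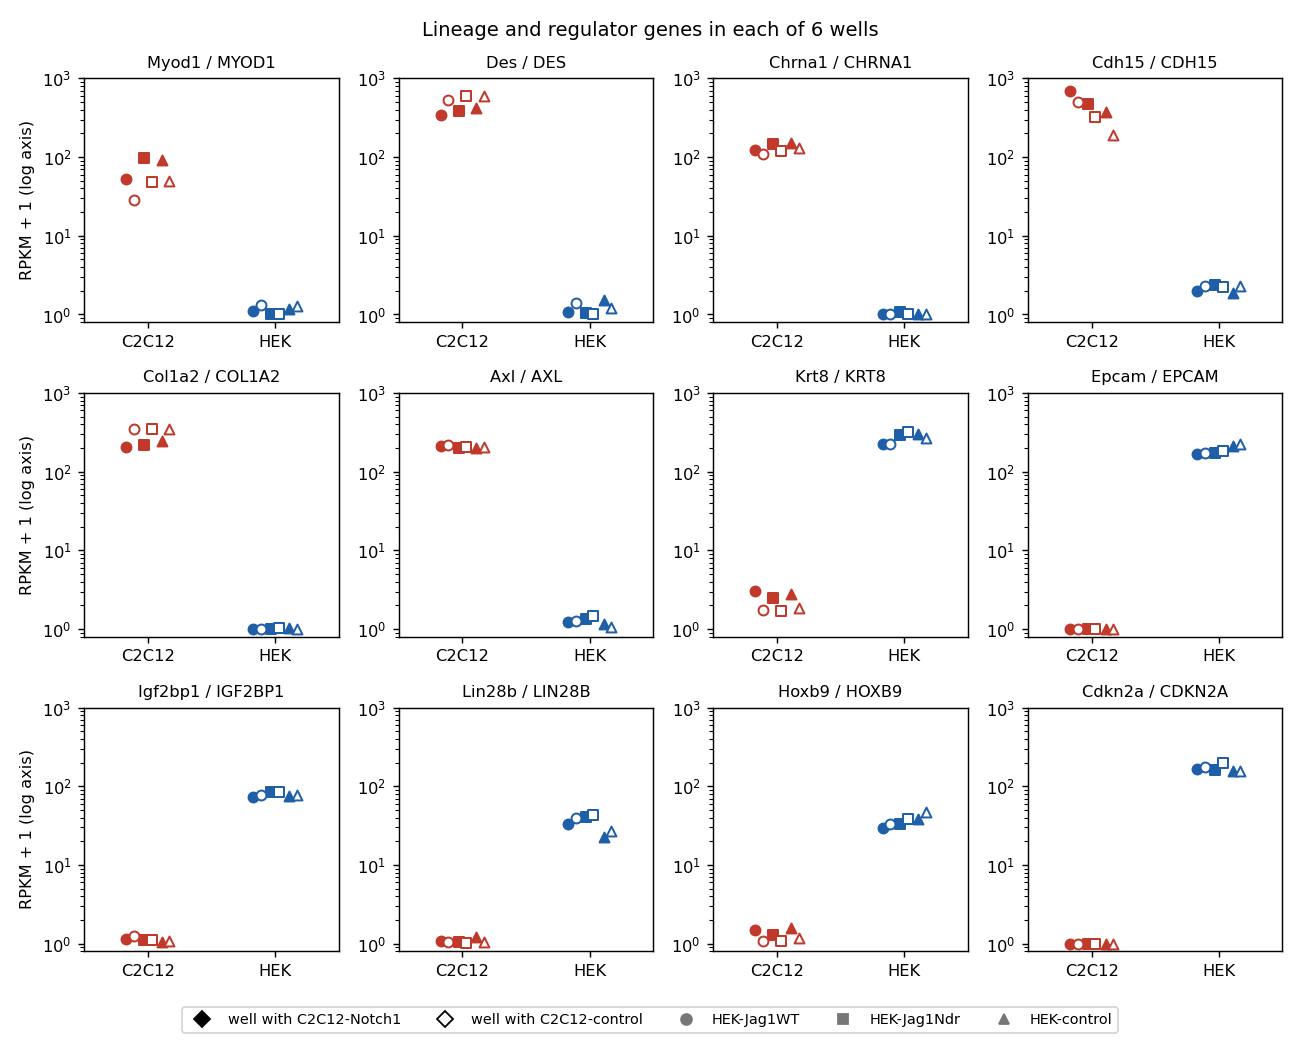
RPKM + 1 on a log axis for 12 gene pairs in each of 6 wells, C2C12 (mouse gene, red) on the left of each panel and HEK (human gene, blue) on the right; filled points are wells with C2C12-Notch1, open points wells with C2C12-control, and shapes give the HEK line. The 12 genes were picked as examples from the lists described here, so their lack of overlap is no measure of all members. In all 12 panels the 6 values of C2C12 and the 6 of HEK do not overlap, as for Des at 339 to 593 RPKM in C2C12 and 0 to 0.523 RPKM in HEK.

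Contractile genes of mural and smooth muscle cells also lay on the C2C12 side (6 of 13 higher in C2C12, 0 higher in HEK, 2 close, median ratio 3.01). Transgelin (Tagln) read 63.4, 182 and 332 RPKM in C2C12 and 2.13, 2.31 and 3.67 RPKM in HEK. Pdgfrb, a growth factor receptor of mural cells, read 15.9, 33.5 and 68.6 RPKM in C2C12 and 0.0341, 0.0757 and 0.148 RPKM in HEK. The light chain Myl9 averaged 26.5 RPKM in C2C12 and was listed at 0 in HEK. Acta2, smooth muscle actin, had a large mean ratio but a wide spread (3.01 ± 1.48, 1.37 to 5.04 over wells) and was not called. Rgs5, a pericyte gene, was listed at 0 in C2C12 and averaged 3.3 RPKM in HEK.

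Collagen genes were higher in C2C12 for 10 of 19 members, with 1 higher in HEK, 2 close and a median ratio of 3.06, the largest median of the 31 lists described here. Col1a2 read 206, 295 and 351 RPKM in C2C12 and 0, 0 and 0.0359 RPKM in HEK. Col3a1 read 363, 417 and 478 RPKM in C2C12 and 0.124, 0.69 and 2.36 RPKM in HEK. Col5a3 and Col5a2, minor fibrillar chains, had ratios of 5.74 ± 0.62 and 5.69 ± 0.80. The cartilage collagen Col2a1 was the member higher in HEK, at 0, 0.00636 and 0.106 RPKM in C2C12 and 13.6, 17.4 and 28.8 RPKM in HEK. Basement membrane chains were nearer to each other, with Col4a1 at a mean of 95 RPKM in C2C12 and 39.4 RPKM in HEK.

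Among 32 matrix glycoprotein, proteoglycan and remodelling genes, 15 were higher in C2C12, 4 were higher in HEK and 1 was close (median ratio 2.40). Mgp, an inhibitor of matrix calcification, read 117, 229 and 379 RPKM in C2C12 and 0, 0.0271 and 0.102 RPKM in HEK. Sparc, a collagen-binding secreted protein, read 1125, 1248 and 1337 RPKM in C2C12 and 13.2, 23.1 and 42.4 RPKM in HEK. Fibronectin (Fn1) varied little in C2C12 (493, 543 and 589 RPKM) and widely in HEK (9.93, 36 and 84.5 RPKM), so its ratio of 4.04 had an SD of 1.20. Biglycan (Bgn) varied in C2C12 instead, at 13, 347 and 715 RPKM there and 0 to 0.0402 RPKM in HEK. The 4 members higher in HEK were the laminin chains Lama1 (0.00329 RPKM in C2C12, 14.5 RPKM in HEK) and Lama4 (0.357 RPKM in C2C12, 17.8 RPKM in HEK), the microfibril gene Fbn2 and the proteoglycan Gpc3. Fbn2 and Gpc3 were listed at 0 in C2C12 and averaged 13.7 and 12.6 RPKM in HEK, whereas Fbn1 averaged 23.8 RPKM in C2C12 and 1.7 RPKM in HEK.

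Integrins gave 5 of 16 higher in C2C12, 1 higher in HEK and 3 close (median ratio 0.60). The common beta chain Itgb1 had the tightest ratio of those named, 2.17 ± 0.08, from 316, 328 and 341 RPKM in C2C12 and 67.9, 72 and 76.4 RPKM in HEK. Itgb3, the beta chain of the vitronectin receptor, averaged 48.7 RPKM in C2C12 and 0.335 RPKM in HEK. The alpha chain higher in HEK was the collagen receptor Itga1 (0.0281 RPKM in C2C12, 4.21 RPKM in HEK). Cadherins and connexins split, with 3 of 17 higher in C2C12, 1 higher in HEK and 6 close (median ratio -0.09). Cdh13 averaged 28.3 RPKM in C2C12 and 0.0765 RPKM in HEK, Gja1 (connexin 43) 133 RPKM in C2C12 and 19.4 RPKM in HEK, and Gjb2 (connexin 26) 0.131 RPKM in C2C12 and 18.8 RPKM in HEK. N-cadherin (Cdh2) was level at 25.8 RPKM in C2C12 and 25.6 RPKM in HEK.

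The 10 members with the largest ratios toward C2C12 were Spp1, S100a4, Lgals1, Mif, S100a6, Des, Tm4sf1, Col1a2, Crip1 and H19. Osteopontin (Spp1), a secreted matrix protein, read 3099, 3955 and 4679 RPKM in C2C12 and 0, 0.149 and 0.378 RPKM in HEK, the largest ratio of all members at 11.72 ± 0.30. Galectin-1 (Lgals1), a sugar-binding protein, read 4703, 5200 and 5383 RPKM in C2C12 and 2.5, 3.87 and 7.08 RPKM in HEK. The calcium-binding proteins S100a4 and S100a6 averaged 1980 and 583 RPKM in C2C12, against 0.417 and 0.0819 RPKM in HEK. Mif, a cytokine found in most cells, is uncertain because the human gene was listed at 0 with no reads and the mouse value rests on a short counted length of 119 bases.

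On the HEK side, keratin and epithelial junction genes gave 8 of 18 higher in HEK, 0 higher in C2C12 and 6 close (median ratio -1.85). The adhesion molecule Epcam was listed at 0 in every C2C12 value and read 167, 177 and 225 RPKM in HEK. Keratins Krt8 and Krt18 form the filaments of simple epithelia. Krt8 read 0.722, 1.18 and 2.04 RPKM in C2C12 and 224, 281 and 319 RPKM in HEK, and Krt18 was listed at 0 in C2C12 and read 89.2, 104 and 109 RPKM in HEK. Desmoplakin (Dsp) and the epithelial splicing factors Esrp2 and Esrp1 had ratios of -5.19 ± 0.50, -4.46 ± 0.41 and -3.44 ± 0.38. Krt19 did not follow Krt8 and Krt18, with means of 41.8 RPKM in C2C12 and 57 RPKM in HEK and an SD of 1.59 around a ratio of -1.10.

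Embryonic and renal regulators gave 7 of 19 higher in HEK, 0 higher in C2C12 and 5 close (median ratio -1.10). Igf2bp1, a fetal RNA-binding protein, read 0.0464, 0.108 and 0.261 RPKM in C2C12 and 72.7, 76.2 and 84.8 RPKM in HEK. Lin28b, which blocks let-7 microRNA maturation, read 0.0232, 0.0473 and 0.214 RPKM in C2C12 and 22, 35.3 and 42.6 RPKM in HEK. The nephron progenitor factors Six2, Wt1 and Sall1 were listed at 0 in C2C12 and averaged 5.18, 5.77 and 7.8 RPKM in HEK, and the renal stroma factor Foxd1 averaged 0.0147 RPKM in C2C12 and 13.7 RPKM in HEK. The let-7 target Hmga2 ran the other way without being called, at 53.1, 80.2 and 108 RPKM in C2C12 and 31.6, 35.1 and 35.9 RPKM in HEK.

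HOX genes, which set position along the body axis, gave 9 of 39 higher in HEK, 1 higher in C2C12 and 10 close (median ratio -1.31). Hoxb9 averaged 0.286 RPKM in C2C12 and 35.7 RPKM in HEK. Hoxd13, Hoxb2 and Hoxd11 were listed at 0 in C2C12 and averaged 21.3, 18.8 and 14 RPKM in HEK. All 9 members of the D cluster were listed at 0 or under 0.03 RPKM on average in C2C12. The C2C12 side held Hoxc10, at 20.4, 25.2 and 29.6 RPKM in C2C12 and 2.68, 3.46 and 4.46 RPKM in HEK, while Hoxc9 and Hoxa11 were close.

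Neuronal genes split evenly, with 3 of 15 higher in C2C12, 3 higher in HEK and 3 close (median ratio -0.01). Alpha-internexin (Ina), a neuronal filament protein, was listed at 0 in C2C12 and averaged 104 RPKM in HEK, and the ubiquitin hydrolase Uchl1 averaged 8.22 RPKM in C2C12 and 306 RPKM in HEK. In the opposite direction, Stmn2, a microtubule regulator, averaged 62.7 RPKM in C2C12 and 0.0185 RPKM in HEK, and neurofilament Nefm 41.1 RPKM in C2C12 and 0.618 RPKM in HEK. The partner filament Nefl was level on average (116 RPKM in C2C12, 96 RPKM in HEK) but spread over wells (ratio 0.69 ± 1.38).

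The 10 members with the largest ratios toward HEK were Rpl29, Bex1, Mdk, Dmkn, Rpl3, Spint2, Ndufs5, Ldhb, Actg1 and Epcam. Midkine (Mdk), a heparin-binding growth factor of embryonic tissue, averaged 0.052 RPKM in C2C12 and 308 RPKM in HEK. Bex1 and Dmkn were listed at 0 in C2C12 and averaged 324 and 296 RPKM in HEK. Spint2, a protease inhibitor of epithelia, averaged 0.0411 RPKM in C2C12 and 296 RPKM in HEK, where the HEK-Jag1Ndr wells were lower (151 and 164 RPKM) than the HEK-Jag1WT (340 and 364 RPKM) and HEK-control wells (375 and 383 RPKM). Rpl29, Rpl3, Ndufs5 and Actg1 are needed by every cell, and their ratios are uncertain, as set out with the ribosomal genes.

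**Figure D3:**
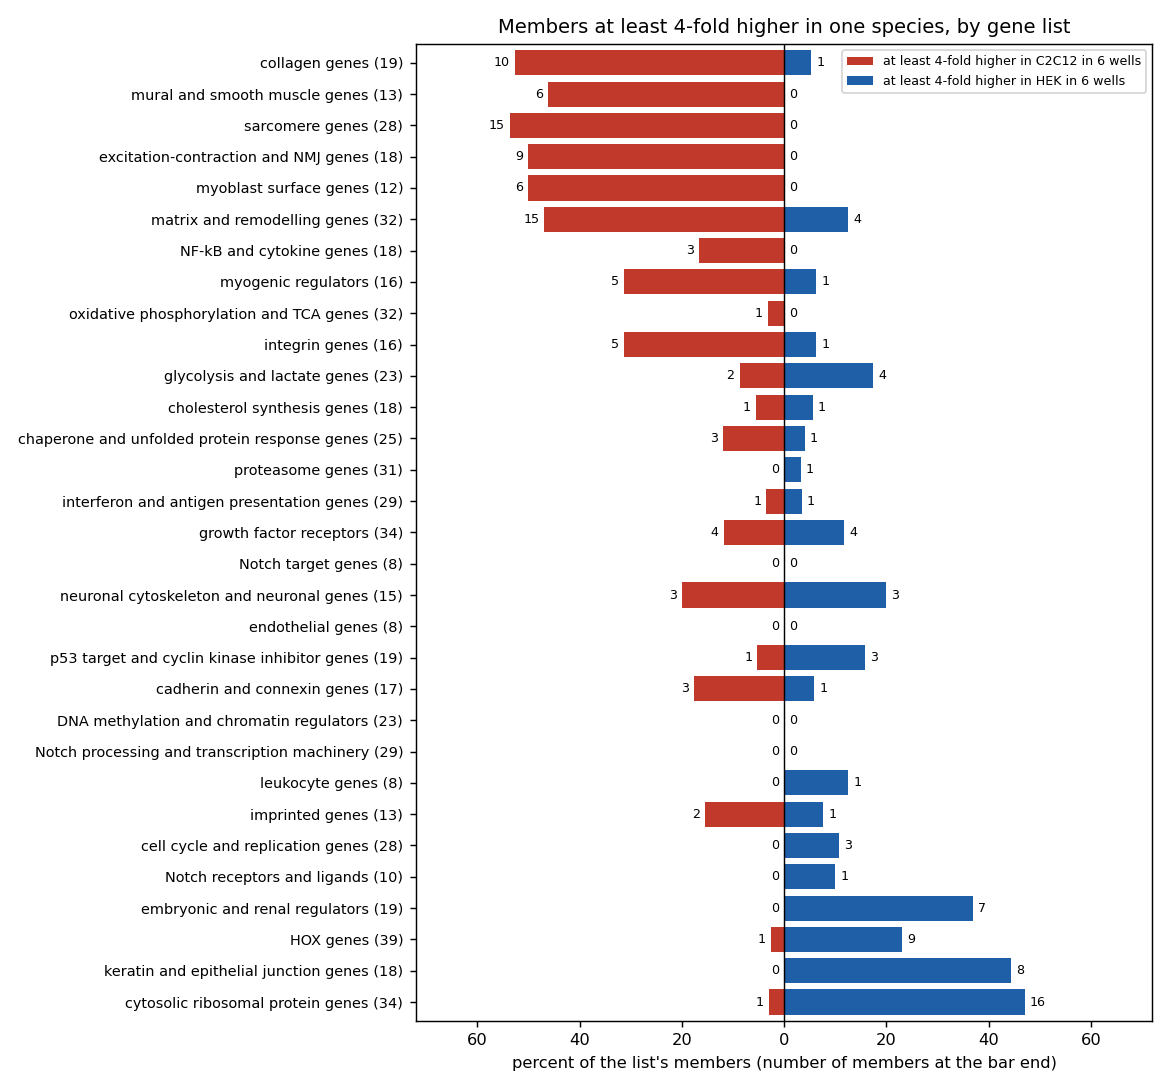
Share of each of 31 gene lists called at least 4-fold higher in C2C12 (red, to the left) or in HEK (blue, to the right) in all 6 wells, in percent of members, with the number of members at the bar end and list size in brackets. Lists are ordered by median log2 ratio from collagen genes (10 of 19 higher in C2C12) at the top to cytosolic ribosomal protein genes (16 of 34 higher in HEK) at the bottom.

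Few Notch pathway genes other than Notch1 and Jag1 passed the 4-fold limit in every well. Among all members 4.61% were higher in C2C12 and 5.83% higher in HEK. Most of the Notch pathway genes were not close either. The 45.0% close among all members is no like measure, because most of those pairs were low in both species. Of 10 receptors and ligands, 0 were higher in C2C12, 1 was higher in HEK and 3 were close (median ratio -0.54). Notch3 read 77.6, 45.6 and 45.5 RPKM in C2C12-Notch1 and 58.7, 38.7 and 27.3 RPKM in C2C12-control (with HEK-Jag1WT, HEK-Jag1Ndr and HEK-control), while HEK values were 5.94 to 11.4 RPKM. Its ratio was 2.38 ± 0.48 and fell short of 4-fold in 2 of 6 wells. Notch2 was close, at 18.3, 23.5 and 27.8 RPKM in C2C12 and 26.1, 26.6 and 30.3 RPKM in HEK. The ligand Jag2 averaged 24.8 RPKM in C2C12 and 11.4 RPKM in HEK. The Delta ligands were low: Dll1 averaged 1.01 RPKM in C2C12 and 3.98 RPKM in HEK, Dll4 0.0478 RPKM in C2C12 and 1.24 RPKM in HEK, and Dll3 was listed at 0 in C2C12 and averaged 6.82 RPKM in HEK. The member called higher in HEK was Dlk2, a Delta-like protein, at 0.287 RPKM in C2C12 and 7.67 RPKM in HEK. Notch4, Dner and Dlk1 stayed under 1 RPKM on average in both species.

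Of 29 genes that process Notch or act with it in transcription, 0 were called in either direction and 11 were close (median ratio -0.26). The DNA-binding partner Rbpj averaged 14 RPKM in C2C12 and 30 RPKM in HEK. The sheddases Adam10 and Adam17 averaged 32.5 and 34.5 RPKM in C2C12, against 11.5 and 14.5 RPKM in HEK. The gamma-secretase subunit Ncstn was close, whereas Psen2, a catalytic subunit, averaged 4.68 RPKM in C2C12 and 22.1 RPKM in HEK. Lfng, a glycosyltransferase that tunes ligand choice, averaged 7.73 RPKM in C2C12 and 1.09 RPKM in HEK. Among 8 Notch target genes 0 were called and 2 were close (median ratio 0.08), and Hes5 was listed at 0 in both species. The ratio of Hey1 ran with the HEK line of the well: 1.41 and 1.02 with HEK-Jag1WT, 0.66 and -0.12 with HEK-Jag1Ndr, and 0.27 and -1.01 with HEK-control (C2C12-Notch1 well first in each pair). Nrarp, an inhibitor of Notch signalling that Notch induces, ran from 0.71 in the C2C12-Notch1 well with HEK-Jag1WT to -4.43 in the C2C12-control well with HEK-control.

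Growth factor receptors were divided, with 4 of 34 higher in C2C12, 4 higher in HEK and 7 close (median ratio 0.11). Axl, the receptor for Gas6, read 198, 206 and 219 RPKM in C2C12 and 0.0533, 0.248 and 0.473 RPKM in HEK. The FGF receptors were split between the species: Fgfr1 averaged 108 RPKM in C2C12 and 15.2 RPKM in HEK, whereas Fgfr2, Fgfr3 and Fgfr4 averaged 0.061, 0.248 and 0.0181 RPKM in C2C12 and 5.08, 13.2 and 5.61 RPKM in HEK. Of 13 imprinted genes, 2 were higher in C2C12, 1 was higher in HEK and 2 were close (median ratio -0.34). H19, a long noncoding RNA, read 576, 546 and 593 RPKM in C2C12-Notch1 cells and 177, 179 and 173 RPKM in C2C12-control cells, against 0.0876 to 0.742 RPKM in HEK. Peg3 averaged 44 RPKM in C2C12 and 0.0231 RPKM in HEK, and Grb10, an adaptor that restrains insulin signalling, 0.0632 RPKM in C2C12 and 47.8 RPKM in HEK.

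Genes of NF-kB signalling and cytokines gave 3 of 18 higher in C2C12, 0 higher in HEK and 3 close (median ratio 1.62), with Ccl7 at 6.98, 19.6 and 37.3 RPKM in C2C12 and 0, 0.342 and 0.61 RPKM in HEK, and Csf1 at means of 49 RPKM in C2C12 and 3.01 RPKM in HEK. Interferon response and antigen presentation genes were called in 2 of 29 cases (1 in each direction, 1 close, median ratio 0.12). Irf1 was higher in C2C12 (50.2 RPKM, against 5.81 RPKM in HEK), and Ifit2, an interferon-induced RNA-binding protein, was higher in HEK (12.7 RPKM in C2C12, 482 RPKM in HEK). Ifit3 read 0, 0 and 0.361 RPKM in C2C12-Notch1 cells and 54, 85.1 and 58.2 RPKM in C2C12-control cells, against 196 to 985 RPKM in HEK.

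The p53 target and cyclin kinase inhibitor list gave 1 of 19 higher in C2C12, 3 higher in HEK and 5 close (median ratio -0.08). Cdkn2a, which encodes p16 and ARF, was listed at 0 in every C2C12 well, with 0 mouse reads, and read 155, 161 and 199 RPKM in HEK. Its neighbour Cdkn2b was also listed at 0 in C2C12 and averaged 9.83 RPKM in HEK. Cdkn1a (p21) was close and high in both, with means of 246 ± 30.7 RPKM in C2C12 and 199 ± 28.5 RPKM in HEK (SD, n = 6 wells), and Mdm2 and Cdkn1b were also close. Cell cycle and replication genes gave 0 of 28 higher in C2C12, 3 higher in HEK and 9 close (median ratio -0.40). The 3 were Cdc6 and Mcm7, which license replication origins, and thymidylate synthase (Tyms), at 10.2, 58.6 and 17.6 RPKM in C2C12 and 139, 645 and 149 RPKM in HEK. Pcna, the replication clamp, was more than 2-fold higher in HEK in every well without reaching 4-fold throughout (ratio -1.96 ± 0.28). The proliferation genes Mki67 and Top2a were close, while the mitotic genes Aurka, Ccna2 and Cdc20 averaged 94.2, 143 and 131 RPKM in C2C12 and 37.7, 58.9 and 59.8 RPKM in HEK. DNA methylation and chromatin regulators gave 0 calls in 23 and 7 close members (median ratio -0.11), with Dnmt1 at 42.5 RPKM in C2C12 and 138 RPKM in HEK.

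Few genes of the proteasome and of oxidative phosphorylation and the citrate cycle were called in either direction. Among all members 4.61% were higher in C2C12, 5.83% were higher in HEK and 45.0% were close, most of the close pairs being low in both species. Proteasome genes gave 17 of 31 close, 0 higher in C2C12 and 1 higher in HEK (median ratio 0.35), and oxidative phosphorylation and citrate cycle genes 16 of 32 close, 1 higher in C2C12 and 0 higher in HEK (median ratio 0.62). Psmd12, a lid subunit, averaged 80.1 RPKM in C2C12 and 80.5 RPKM in HEK, and the ATP synthase subunit Atp5a1 345 RPKM in C2C12 and 324 RPKM in HEK. The member higher in C2C12 was Ndufa4 (203 RPKM in C2C12, 26.8 RPKM in HEK), and the one higher in HEK was Psma3 (13.6 RPKM in C2C12, 97.9 RPKM in HEK). Cholesterol synthesis genes gave 1 higher in C2C12, 1 higher in HEK (Hmgcs1, listed at 0 in C2C12) and 5 close of 18 (median ratio 0.48). The value of 0 for Hmgcs1 is uncertain, and the part of read assignment in it was not tested.

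Ribosomal protein genes stood out, with 16 of 34 higher in HEK, 1 higher in C2C12 and 9 close (median ratio -2.25). Rpl8 was level, at 2059, 2237 and 2563 RPKM in C2C12 and 1818, 2377 and 2579 RPKM in HEK, while Rpl3, a subunit of the same particle, averaged 2.73 RPKM in C2C12 and 976 RPKM in HEK. Ribosomal proteins are made in equal numbers, and their genes have many near-identical processed copies. RPKM and reads together give the length that each table divided by, and this length was short for several of these genes: Rpl3 had 182 bases in the mouse table and 732 in the human table, Gapdh 231 and 1118, and Eno1 43 and 1876. These genes are therefore reported as uncertain, and the part of read assignment between gene copies in their ratios was not tested. The same holds for Gapdh (7.99 RPKM in C2C12, 1414 RPKM in HEK), Actg1 (5.52 RPKM in C2C12, 1215 RPKM in HEK) and Hspa8 (2.55 RPKM in C2C12, 650 RPKM in HEK). It also holds for Rpl29, a ribosomal gene outside the list, which rests on 12 mouse reads over a counted length of 191 bases (2.65 RPKM in C2C12, 1123 RPKM in HEK). Ndufs5, a subunit of respiratory complex I, had 0 mouse reads in all wells and 257 RPKM in HEK, so no mouse length could be derived for it.

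**Figure D4:**
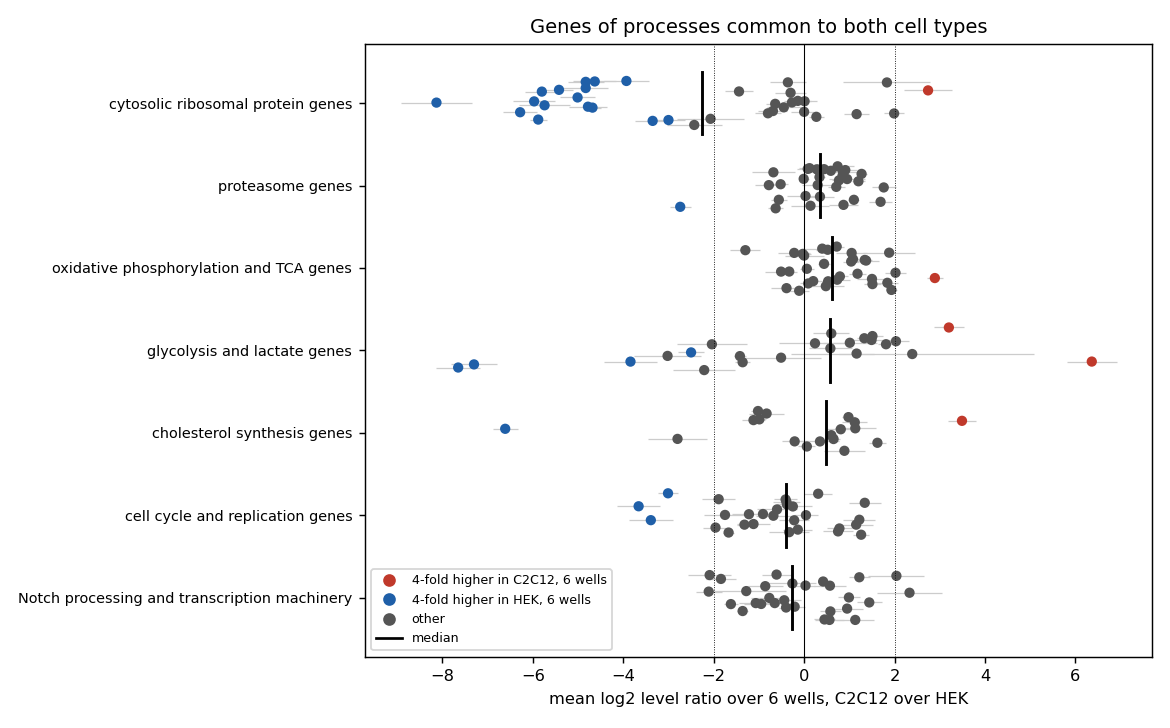
Mean log2 level ratio of C2C12 over HEK for each gene of 7 lists (points) with its SD over 6 wells (grey lines) and the list median (black bar); red and blue points are genes called higher in C2C12 and in HEK, and dotted lines mark 4-fold. The 34 ribosomal protein genes include 9 close to 0 and 16 far to the left, down to Rpl3 at -8.13, while of the 31 proteasome genes only Psma3, at -2.74, lies outside the dotted lines.

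Counted lengths within 2-fold of each other were found for 8674 (88.2%) of the 9831 members with at least 30 reads in each table. Within these 8674, 466 (5.37%) were higher in C2C12 and 307 (3.54%) were higher in HEK. Where the mouse length was less than 50% of the human length (733 members), 52 were higher in C2C12 and 33 in HEK, and where it was more than 2-fold the human length (424 members), 17 were higher in C2C12 and 37 in HEK. Of the 930 members higher in HEK, 192 had no mouse read in any well, and of the 735 higher in C2C12, 48 had no human read. Another 4 human genes (LGALS8, CACNA1C, CACNA1G and TRPV4) were listed at 0 RPKM despite at least 10 reads in a well.

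Glycolysis and lactate genes gave 2 of 23 higher in C2C12, 4 higher in HEK and 0 close (median ratio 0.58). The list holds Gapdh and Eno1, whose ratios are uncertain, as set out with the ribosomal genes. The muscle enolase Eno3 read 224, 253 and 281 RPKM in C2C12 and 1.19, 2.2 and 3.34 RPKM in HEK, a ratio of 6.36 ± 0.55. Lactate dehydrogenase B (Ldhb), the heart-type subunit, read 1.6, 2.38 and 5.64 RPKM in C2C12 and 689, 717 and 759 RPKM in HEK, and its counted length was similar in the tables (948 bases in mouse, 1243 in human). The muscle-type subunit Ldha averaged 1053 RPKM in C2C12 and 251 RPKM in HEK. Pgk1 was higher in C2C12 (677 RPKM, against 71.9 RPKM in HEK), and Pkm and Aldoa averaged 1482 and 789 RPKM in C2C12 and 589 and 278 RPKM in HEK. Chaperone and unfolded protein response genes gave 3 of 25 higher in C2C12, 1 higher in HEK and 6 close (median ratio 0.38). This list holds Hspa8, whose ratio is uncertain, as set out above. The 3 higher in C2C12 were the small heat shock proteins Cryab and Hspb2 and the collagen chaperone Serpinh1, at 77, 19.4 and 548 RPKM in C2C12 and 0.216, 0.104 and 56.4 RPKM in HEK.

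The most abundant close pairs were Rpl8, Gnb2l1, Tuba1b, Rpl4, Actb, Ptma, Tmbim6, Eif5a, Rplp0 and Tagln2. Beta-actin (Actb) averaged 952 ± 88.5 RPKM in C2C12 and 624 ± 37.4 RPKM in HEK, and the ribosome-bound scaffold Gnb2l1 1041 ± 75.1 RPKM in C2C12 and 1442 ± 150 RPKM in HEK (SD, n = 6 wells). Tuba1b and Ptma rest on mouse counted lengths of 124 and 110 bases, so their agreement in level is uncertain. Vimentin (Vim), the filament protein of mesenchymal cells, was abundant in both but higher in C2C12, at 2738, 2818 and 3065 RPKM there and 205, 247 and 272 RPKM in HEK (ratio 3.55 ± 0.15). Vim was named after its values were seen, as were other list members given as examples outside the stated rule.

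At a limit of 2-fold on either side, the order of the species depended on the line for very few genes. Between the C2C12 lines, 6 members (0.0376%) were at least 2-fold higher in HEK in all 3 C2C12-Notch1 wells and at least 2-fold higher in C2C12 in all 3 C2C12-control wells, and 0 members did the opposite. They were Ccl5, Irf7, Ifi44, Oas3, Evc and Rpl21. Ccl5, a chemokine, read 0, 0 and 0.362 RPKM in C2C12-Notch1 cells and 111, 147 and 131 RPKM in C2C12-control cells, while the HEK cells of the same wells read 10.7, 4.28 and 8.28 RPKM and 4.19, 3.33 and 5.56 RPKM. Irf7, a transcription factor that amplifies interferon, read 0.251, 0.738 and 0.491 RPKM in C2C12-Notch1 cells and 108, 140 and 126 RPKM in C2C12-control cells, with 3.53 to 6.05 RPKM in HEK. Both mouse genes were at or near 0 in the Notch1 line, and neither human gene reached the level of the C2C12-control wells. Ifi44, an interferon-induced gene, read 0, 0.179 and 0 RPKM in C2C12-Notch1 cells and 28.2, 38 and 31 RPKM in C2C12-control cells, with 2.22 to 7.35 RPKM in HEK. Oas3, a sensor of double-stranded RNA, was listed at 0 in the C2C12-Notch1 wells and read 31.2, 39.9 and 34.2 RPKM in C2C12-control cells, with 4.94 to 13.5 RPKM in HEK. These mouse genes followed the same pattern of no overlap between the C2C12 lines. Evc, a component of the primary cilium, was listed at 0 in the C2C12-Notch1 wells and read 12.6, 11.5 and 12.9 RPKM in C2C12-control cells, with 2.63 to 4.62 RPKM in HEK. Rpl21 rests on 1 human read in each C2C12-Notch1 well over a counted length of 4 bases and is no evidence of a level.

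Between HEK lines, the order changed at the same 2-fold limit for 2 members, each in both pairs of lines that hold the line with the low value (1 member, 0.00627%, per pair and direction). Pycr1, an enzyme of proline synthesis, read 0.11 and 0.172 RPKM in the HEK-Jag1WT wells, 9.01 and 10.6 RPKM in the HEK-Jag1Ndr wells and 14.7 and 16.3 RPKM in the HEK-control wells, while C2C12 read 1.7 to 2.91 RPKM throughout. Mgst1, a microsomal glutathione transferase, read 30.6 and 27.4 RPKM in the HEK-Jag1WT wells, 0.195 and 0 RPKM in the HEK-Jag1Ndr wells and 24.5 and 27.4 RPKM in the HEK-control wells, beside 4.23 to 10.6 RPKM in C2C12. In each case the human gene was near 0 in a single HEK line, and the mouse gene was detected in all 6 wells. Leaving out a well gave 3 to 9 such members, with 9 when HEK-Jag1WT beside C2C12-control was left out, 5 for either HEK-control well, and 4 for HEK-Jag1WT beside C2C12-Notch1 or HEK-Jag1Ndr beside C2C12-control. A HEK line with a well left out is judged on its remaining well alone. That looser rule can only keep or add members, so the rise is no result about the well left out.

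**Figure D5:**
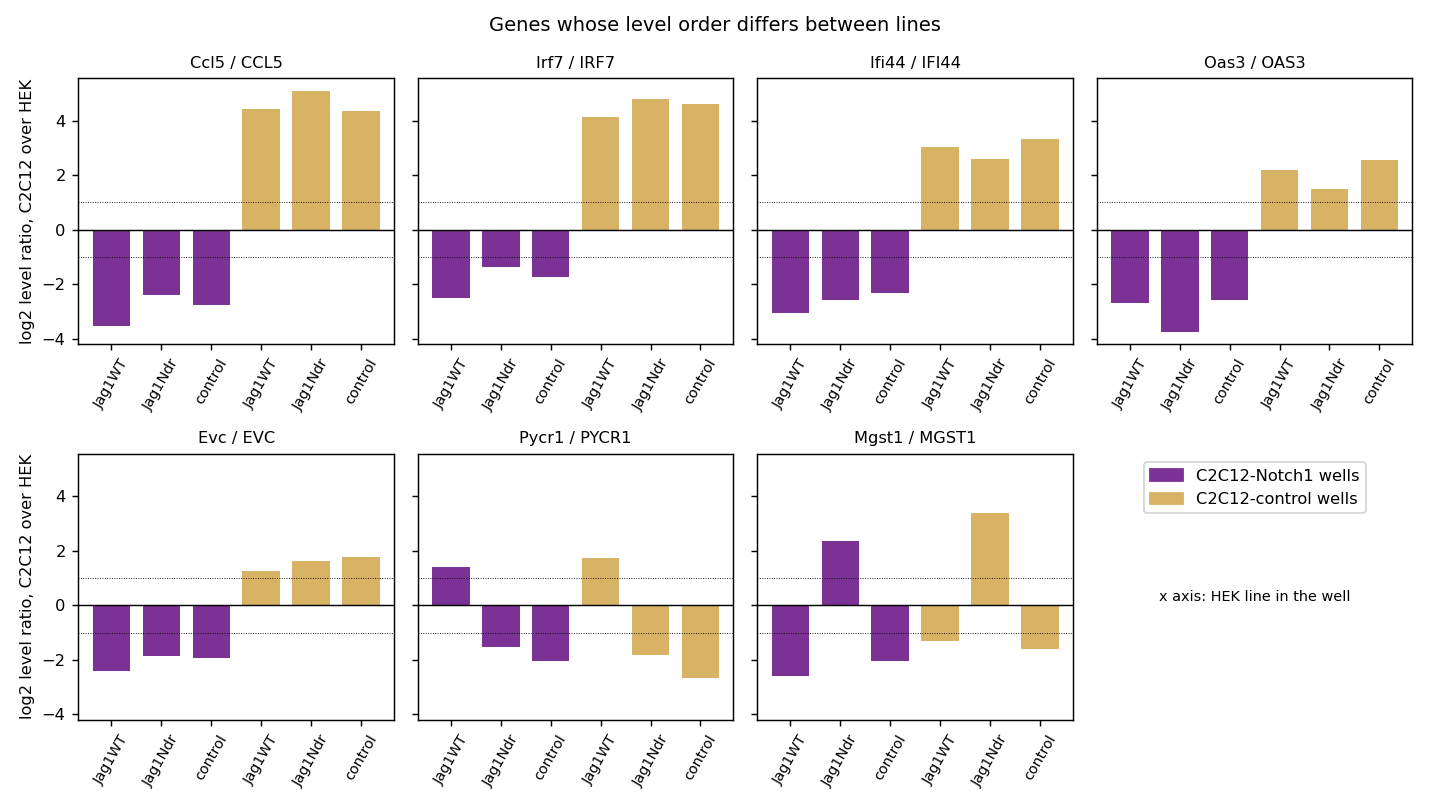
Log2 level ratio of C2C12 over HEK in each of 6 wells for 7 genes whose order differs between lines, wells with C2C12-Notch1 (purple) left of wells with C2C12-control (tan) and the HEK line under each bar; dotted lines mark 2-fold. Ccl5, Irf7, Ifi44, Oas3 and Evc are negative in the 3 purple wells and positive in the 3 tan wells, while Pycr1 is positive only with HEK-Jag1WT and Mgst1 only with HEK-Jag1Ndr.

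Within each table, lines could be tested on reads, with edgeR's quasi-likelihood test on a model of C2C12 line and HEK line over 6 wells and 2 residual degrees of freedom. In the mouse table, 5972 of 10109 tested members differed between C2C12-Notch1 and C2C12-control (2918 higher and 3054 lower) where 57.8% of all genes in the table did. Next to HEK-Jag1WT rather than HEK-control cells, 466 members of the mouse table changed (282 higher, 184 lower), beside 4.46% of all genes in the table (2.70% higher, 1.76% lower), and next to HEK-Jag1Ndr cells 54 did (44 higher, 10 lower), beside 0.528% of all genes (0.431% higher, 0.0968% lower). In the human table the lines themselves differed in 6438 of 11499 members for HEK-Jag1WT (2927 higher, 3511 lower; 54.3% of all genes) and in 5420 for HEK-Jag1Ndr (2714 higher, 2706 lower; 46.1%), both over HEK-control. Beside C2C12-Notch1 rather than C2C12-control cells, 588 members of the human table changed (373 higher, 215 lower), beside 4.84% of all genes (3.07% higher, 1.77% lower). The members' shares lie near those of all genes, the tests use the same wells, and the difference between the tables was not tested. Scaling by library size alone gave 229 higher and 263 lower for HEK-Jag1WT and 33 higher and 14 lower for HEK-Jag1Ndr in the mouse table, and 226 higher and 319 lower beside C2C12-Notch1 cells in the human table. The mouse count of 466 became 274 when the well of HEK-Jag1WT beside C2C12-Notch1 was left out, and 294 when that of HEK-Jag1WT beside C2C12-control was. The human count of 588 became 157 to 177 without any single well of the HEK-Jag1WT or HEK-Jag1Ndr lines, and 1269 or 1282 without either HEK-control well. DESeq2 called 138 members in place of 466, 6 in place of 54 and 62 in place of 588.

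The genes with reversed order changed strongly in the table where they were near 0. These genes were picked by their levels in the same wells, so their tests describe that difference and are no separate support for it. In the mouse table Ccl5 fell by 9.27 (SE 0.282) and Irf7 by 7.89 (SE 0.146) on the log2 scale in C2C12-Notch1 over C2C12-control (edgeR adjusted p = 1.42e-35 and 2.11e-46), and so did Ifi44, which fell by 8.88, Oas3, which fell by 12.57, and Evc, which fell by 10.96. Fitted changes of this size against wells at or near 0 depend on the prior count and are no bounds. All 29 tested interferon response genes fell in that comparison, where 29.4% of all tested genes fell. The list was chosen with earlier results of these data known, so its counts are a description and no independent support. In the human table CCL5 was higher beside C2C12-Notch1 cells by 0.84 (SE 0.225, edgeR adjusted p = 0.0167), a call that was lost under 3 alternatives (adjusted p up to 0.489), and 10 of 24 tested interferon genes rose and 0 fell, where 3.07% of all tested genes rose. The count of 10 became 6 with DESeq2, with limma and without either HEK-Jag1Ndr well. The same list also differed between the HEK lines themselves: 19 of 24 fell and 1 rose in HEK-Jag1WT over HEK-control (median -0.55; 12 fell with DESeq2), and 13 rose and 5 fell in HEK-Jag1Ndr over HEK-control (median 0.31; 2 fell with DESeq2, with limma and when either C2C12-Notch1 well with HEK-Jag1Ndr or HEK-control was left out). Among all genes 29.4% fell and 24.9% rose in HEK-Jag1WT, and 22.6% rose and 23.5% fell in HEK-Jag1Ndr. PYCR1 fell by 6.73 (SE 0.327) in HEK-Jag1WT over HEK-control and MGST1 by 7.99 (SE 0.409) in HEK-Jag1Ndr over HEK-control in the human table (edgeR adjusted p = 4.62e-27 and 9.71e-26).

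Some of the lists were then read within each table, and not all lists that set the species apart are given. They too were chosen with earlier results of these data known, so their counts are descriptions. Of the sarcomere genes tested in the mouse table, 20 of 23 rose in C2C12-Notch1 over C2C12-control and 1 fell (median change 1.46), against 28.4% of all genes that rose. Excitation-contraction and neuromuscular genes gave 14 of 17 risen and 1 fallen (median 0.81). In the human table, collagen genes gave 10 of 14 fallen and 0 risen in HEK-Jag1WT over HEK-control (median -0.47), and 10 of 14 risen and 1 fallen in HEK-Jag1Ndr over HEK-control (median 0.55), 2 comparisons that share the HEK-control wells. DESeq2 called 7 of the fallen and 6 of the risen collagen genes, and 6 of the fallen were called when HEK-Jag1WT beside C2C12-control was left out. Keratin and epithelial junction genes fell in 8 of 13 tested cases and rose in 1 in each of these comparisons (medians -0.36 for HEK-Jag1WT and -0.42 for HEK-Jag1Ndr). Cell cycle genes rose in 16 of 28 and fell in 3 in HEK-Jag1WT (median 0.28), and rose in 12 and fell in 10 in HEK-Jag1Ndr (median 0.01). Among all genes in the human table, 24.9% rose and 29.4% fell in HEK-Jag1WT and 22.6% rose and 23.5% fell in HEK-Jag1Ndr.

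Changes by line were ranked among called genes whose mean log2 CPM was 2 or more, so large differences that did not pass the test are not in the ranking. The largest within the mouse table were Ryr3, a calcium release channel (5.62, SE 0.307, edgeR adjusted p = 2.43e-23), Igfn1, Gpr17, Nkx2-5 and Ogdhl among those higher in C2C12-Notch1, and Oas3, Cdh11, Colec12, Evc and Trim44 among those lower. Beside HEK-Jag1WT cells the largest were Nrarp (5.26, SE 0.275, edgeR adjusted p = 9.88e-23), Gpr133, Hey1, Dio2 and Sec14l2, which rose, and Hivep3, Cxcl5, Wnt7b, Abi3 and Ap5b1, which fell by 1.13 to 1.27 and of which only Wnt7b kept its call in every alternative run. Beside HEK-Jag1Ndr cells they were Nrarp (1.79, SE 0.446, edgeR adjusted p = 0.0395, up to 0.946 in other settings), Wisp2, Dio2 and Id2, which rose, and Nptx1, Wnt7b, Hhip, Sema5a and Sema3c, which fell by 0.46 to 0.69; each of these calls was lost in at least 1 alternative. In the human table, HEK-Jag1WT differed most from HEK-control by higher ANKRD1 (3.95, SE 0.211, edgeR adjusted p = 5.04e-25), SERPINB9, PLAGL1, FAM50B and ZC3H6, and by lower EPHA3, PYCR1, NALCN, CYP7B1 and CHRDL1. HEK-Jag1Ndr differed most by higher SERPINB2 (5.07, SE 0.295, edgeR adjusted p = 5.29e-23), CHRDL1, TCHH, ZC3H6 and ANKRD1, and by lower MGST1, SERPINB9, HSPA1A, TUSC1 and PRAME. Beside C2C12-Notch1 cells, the human changes were small: ID1, DDX58, ANKRD1, CCL5 and PTGS2 rose by 0.83 to 1.03, and TENC1, RNF165, SLC2A3 and SP100 fell by 0.80 to 1.02. Only DDX58 and SLC2A3 of these kept their call in every alternative run.

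Notch genes were tested in both tables. Hey1, a Notch-induced repressor, read 176, 81.9 and 38.1 RPKM in C2C12-Notch1 cells (with HEK-Jag1WT, HEK-Jag1Ndr and HEK-control) and 119, 40.1 and 15.1 RPKM in C2C12-control cells. The human gene read 65.6, 51.5 and 31.4 RPKM in the same C2C12-Notch1 wells and 58.1, 43.7 and 31.4 RPKM beside C2C12-control. Both species thus held most Hey1 in the HEK-Jag1WT wells and least in the HEK-control wells. In the mouse table Hey1 rose by 2.56 (SE 0.161) next to HEK-Jag1WT over HEK-control cells, and in the human table HEY1 rose by 0.98 (SE 0.0764) in HEK-Jag1WT over HEK-control (edgeR adjusted p = 0.000156 and 2.42e-17). Nrarp read 29.9, 2.22 and 0.747 RPKM in C2C12-Notch1 cells and 6.3, 0.779 and 0.195 RPKM in C2C12-control cells. Of 7 human Notch targets tested, HEY1 was the single gene that rose in HEK-Jag1WT over HEK-control and 6 fell (median -0.71). These counts were the same under every alternative run. Among all genes in the human table, 24.9% rose and 29.4% fell in that comparison. The fallen targets included HES1 by 0.57, HEY2 by 0.71, HEYL by 1.02 and CCND1 by 0.88. Of 7 mouse targets, 4 rose and 1 fell next to HEK-Jag1WT cells, and 2 rose when HEK-control beside C2C12-control was left out. Among all genes in the mouse table, 2.70% rose and 1.76% fell next to HEK-Jag1WT cells. The human NRARP fell by 0.49 (SE 0.0955) in HEK-Jag1WT over HEK-control (edgeR adjusted p = 1.29e-05), where mouse Nrarp had its highest values. Heyl, a related repressor, read 33.1, 14.1 and 5.98 RPKM in C2C12-Notch1 cells and 111, 27.5 and 6.94 RPKM in C2C12-control cells, against 3.77 to 9.55 RPKM in HEK. The mouse difference of 3.41 (SE 0.461) next to HEK-Jag1WT over HEK-control cells did not pass the test (edgeR adjusted p = 0.165). Mouse Notch3 rose by 0.95 (SE 0.0787) and mouse Ccnd1, cyclin D1, fell by 0.42 (SE 0.0589) next to HEK-Jag1WT cells (edgeR adjusted p = 1.49e-08 and 4.15e-07). The human MYC, a growth regulator, read 26.1 and 22.8 RPKM in HEK-Jag1WT wells, 55.3 and 47 RPKM in HEK-Jag1Ndr wells and 95.8 and 97.2 RPKM in HEK-control wells, while mouse Myc read 31.8 to 50.8 RPKM, so the species order of Myc differed between HEK-Jag1WT and HEK-control wells without reaching 2-fold in each. Whether any line effect differs between the species was not tested.

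Some genes that differed between lines had wide ratios between species. The inducible heat shock protein gene Hspa1a read 0 to 2.86 RPKM in C2C12, while the human gene read 499 and 484 RPKM in HEK-Jag1WT wells, 4.59 and 4.41 RPKM in HEK-Jag1Ndr wells and 315 and 311 RPKM in HEK-control wells. Its ratio accordingly ran from -8.96 to -0.56 and was not called. Cdh11, a mesenchymal cadherin, was listed at 0 in the C2C12-Notch1 wells, read 24.5, 20.1 and 15.7 RPKM in C2C12-control cells and was listed at 0 in HEK. Plagl1, an imprinted transcription factor, read 18.5 and 18.2 RPKM in HEK-Jag1WT wells, 1.39 and 1.66 RPKM in HEK-Jag1Ndr wells and 1.87 and 2.08 RPKM in HEK-control wells, beside 0.0438 to 1.19 RPKM in C2C12.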

How the data were processed

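PolyA RNA of 6 mouse-human co-culture wells was sequenced from libraries made without strand information, per the labels' protocols. STAR and the builds mm9 and hg19 come from the submitters' processing notes; the sources used here do not give versions, the read counter or the way reads were divided by species. Read counts and RPKM per gene were deposited by the authors for each species, per the file headers. The counts were whole numbers and were used as deposited.

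Names with 1 row in each table, after exact repeats were dropped, were joined. Levels were compared as log2((mouse RPKM + 1)/(human RPKM + 1)), with no test across tables and no correction for the counted length, which was derived from reads, RPKM and the library total. Within each table all genes that passed filterByExpr were fitted with edgeR 4.0.16 (TMM scaling, quasi-likelihood test, model of C2C12 line plus HEK line, Benjamini-Hochberg adjustment over all genes tested, called at an adjusted p under 0.05). The model assumes that the effects of the 2 lines in a well add up. The fit was tested on simulated data with 2-fold changes between the C2C12 lines in a small share of genes and with independent wells. Far larger shares were called between lines here, so the simulation cannot check error rates in these data. Alternatives were DESeq2 1.42.0, limma 3.58.1 on log2(RPKM + 1), other scalings, filters, pseudocounts and thresholds, and leaving out each well; limits on counted length were added after seeing the data. Software was R 4.3.3, Python 3.11.15, numpy 2.4.6 and pandas 2.3.3. Each well gave 2263529 to 7965231 mouse reads and 4081452 to 10292878 human reads, which limits the precision of low genes; SDs are over 6 wells that pool both lines of C2C12 and 3 of HEK, so they include differences between lines.

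The members and gene lists were chosen with earlier results of these data known. Genes were named as the 10 largest ratios in each direction among called members, up to 4 members with the largest ratios in each list, all members of the Notch lists for counts, the 10 most abundant close pairs, up to 10 reversals per direction, and the 5 largest called changes in each direction per comparison within a table at an average log2 CPM of at least 2. Further examples were chosen after their values were seen. A few members that the rule would name are not reported here.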

Additional observations from a re-analysis of the deposited data

Results flagged for a closer look

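For 6 members every C2C12-Notch1 well and every C2C12-control well lay at least 2-fold on opposite sides of equal levels, and the difference between the lines was not tested across tables. The log2 ratio of C2C12 over HEK spanned 8.65 for Ccl5 (wells from -3.55 to 5.10), 7.27 for Irf7 (-2.49 to 4.78), 6.37 for Ifi44 (-3.06 to 3.31), 6.32 for Oas3 (-3.75 to 2.57), 4.18 for Evc (-2.40 to 1.78) and 5.68 for Rpl21 (-3.60 to 2.08). The Rpl21 span rests on 3 human reads in all.

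For 2 members the wells of a single HEK line lay at least 2-fold on the side opposite to those of both other lines, which were themselves at least 2-fold away from equal levels, again without a test across tables. The span of the log2 ratio was 4.42 for Pycr1 (-2.68 to 1.74), with the HEK-Jag1WT wells apart, and 6.00 for Mgst1 (-2.60 to 3.40), with the HEK-Jag1Ndr wells apart.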

How the results depend on the processing

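No separate paired test was run, because within a table each combination of lines had 1 well and no replicate number pairs wells. The model holds the partner line as a term, so lines were compared among wells that share a partner. Level ratios were taken within a well. Of 2464 alternative values of the level ratio of 187 named genes, 2175 moved by less than 1 SD over wells and 289 moved by more. A reversal was counted only for called genes, and 0 were found. Those genes lie at least 4-fold to 1 side in all 6 wells, so this count could hardly differ from 0. Changes of sign in genes that were not called were not counted. No scaling moved the median of expressed members by more than 0.07. The counts depended on the settings that act on low genes and on the threshold. The 735 members higher in C2C12 became 385 with 5 RPKM added, 1695 at 2-fold, 338 at 8-fold and 466 with at least 30 reads and counted lengths within 2-fold. The 930 higher in HEK became 1814 with 0.1 RPKM added, 324 with 5 RPKM, 1404 after rescaling to 1000000 over members, 2299 at 2-fold, 407 at 8-fold and 307 with the limits on reads and lengths. The 7187 close pairs became 4602 with 0.1 RPKM added, 3344 at a mean of at least 1 RPKM, 4627 at lengths of at least 500 bases and 3144 with the limits on reads and lengths. The mean Pearson and Spearman correlations of 0.761 and 0.763 became 0.562 and 0.567 among members with a mean of at least 1 RPKM in both tables. Reversals between C2C12 lines numbered 6, and 15 with 0.1 RPKM added, 1 with 5 RPKM and 2 at 4-fold; the opposite direction gave 0, and 1 with 0.1 RPKM. Reversals between HEK lines numbered 2, and 4 with 0.1 RPKM, 0 with 5 RPKM and 0 at 4-fold. Leaving out a well gave 3 to 9 of them, with 9 when HEK-Jag1WT beside C2C12-control was left out, 5 for either HEK-control well, and 4 for HEK-Jag1WT beside C2C12-Notch1 or HEK-Jag1Ndr beside C2C12-control. The rule is then looser, because the HEK line concerned is judged on its remaining well alone, and it can only keep or add members.

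Within tables, DESeq2 called 3316 members for the C2C12 lines, 138 beside HEK-Jag1WT and 6 beside HEK-Jag1Ndr in the mouse table, and 62 beside C2C12-Notch1, 3792 for HEK-Jag1WT and 2633 for HEK-Jag1Ndr in the human table. Limma called 162 beside HEK-Jag1WT and 0 beside HEK-Jag1Ndr in the mouse table (501 at an unadjusted p under 0.05) and 21 beside C2C12-Notch1 in the human table. Without a filter, 82 were called beside HEK-Jag1Ndr in the mouse table. Leaving out each well gave 4930 to 5437, 274 to 534 and 37 to 75 in the mouse table for the C2C12 lines, HEK-Jag1WT and HEK-Jag1Ndr, and 157 to 1282, 4419 to 6410 and 3796 to 5146 in the human table. Of 107 results for single genes within tables, 65 kept their call under every alternative run. The human IFI44 difference in HEK-Jag1WT over HEK-control reversed to -0.12 (edgeR adjusted p = 0.84) when HEK-Jag1WT beside C2C12-Notch1 was left out. The cause of these shifts was not tested.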
